A study of Mus musculus with 27 samples.

Results

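SR proteins and heterogeneous nuclear ribonucleoproteins (hnRNPs) were described in the livers of mice with carbon tetrachloride (CCl4) injury. The members were taken by name from the table of 55414 genes, as protein-coding genes whose mouse symbol is Srsf followed by a number or begins with Hnrnp. This gave 32 genes on 16 chromosomes, of which 12 code for SR proteins and 20 for hnRNPs. Of these, 30 averaged 10 counts or more over the libraries and were tested together with the other genes past that minimum, 14114 in all. The remaining 2 were Srsf12, with 0 to 3 counts per library, and Srsf19, with 0 counts in every library.

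SR proteins carry RNA recognition motifs and a domain rich in arginine and serine, bind exonic enhancers in pre-mRNA and recruit the U1 and U2 particles of the spliceosome to nearby splice sites. The hnRNPs coat nascent transcripts and often act as their counterparts, silencing exons, and several also direct export, stability and translation of mRNA. Both families are abundant in every cell type, respond to proliferation and stress, and many of them limit their own level by splicing their pre-mRNA into forms that are destroyed by nonsense-mediated decay.

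RNA from whole liver homogenate of 27 female Balb/c mice, 8 weeks old, was sequenced in 8 groups of separate animals. Healthy mice received intraperitoneal olive oil over 2 weeks, together with PBS in the tail vein (control, 4 mice), the hyaluronan synthesis inhibitor 4-methylumbelliferone by daily gavage at 600 mg/kg (4MU, 3 mice), or lipid nanoparticles in the tail vein holding siRNA against luciferase (siLuc-LNP, 3 mice) or against hyaluronan synthase 2 (siHAS2-LNP, 3 mice). Fibrosis was induced with intraperitoneal CCl4 over the same time, alone (CCl4, 2 mice) or with the same agents (CCl4+siHAS2-LNP, CCl4+siLuc-LNP and CCl4+4MU, each with 4 mice). Per the study's methods, 4MU was mixed with carboxymethyl cellulose, and control mice were gavaged with this slurry. The methods do not say which groups these control mice were. The siRNA was given at 1 mg/kg first and 0.5 mg/kg thereafter, 2 times per week, and the treatments began 2 days before the first CCl4 injection. Luciferase is absent from mice, so siLuc-LNP is the control for the particle and for siRNA as such.

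Libraries held 7044386 to 29425937 counts, the lowest in CCl4+siHAS2-LNP mouse 4. Has2, the gene targeted by siHAS2, had 0 counts in 25 libraries and at most 2 in any, so the knockdown could not be checked at this depth. Levels are given as CPM, the count scaled to a common library total (TMM), and for comparisons between genes as CPM per kb of the merged exons of a gene. Hepatocyte markers were present in all libraries, with Alb between 58023 and 172541 CPM. Changes are log2 fold changes with their standard error (SE) from edgeR's quasi-likelihood test, and a change was called at an adjusted p under 0.05 (Benjamini-Hochberg, over the 14114 genes). In whole tissue, fewer cells of a type and less RNA per cell cannot be told apart. The 2 mice of the CCl4 group are shared by the comparisons of CCl4 with control and of every treatment with CCl4, so these results are not independent of each other.

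The most abundant SR protein gene per length was Srsf5, with a mean of 41.3 CPM per kb over the 27 libraries, followed by Srsf2 with 19.5, Srsf6 with 18.5 and Srsf1 with 14. Srsf4 was the lowest of the 10 tested, with 0.841 CPM per kb. Among the hnRNPs, Hnrnpa2b1, a regulator of exon skipping and of small RNA sorting, had 46.5 CPM per kb and its relative Hnrnpa3 had 44.4, while Hnrnph3 was the lowest with 1.5. Because every annotated exon enters the length, levels per kb are underestimated for genes with many minor transcripts, as in Srsf5 with 97 annotated transcripts. An annotated transcript subject to nonsense-mediated decay was present for 10 of the 10 tested SR protein genes and for 14 of the 20 hnRNP genes, together 80.0% against 74.8% of the 12717 tested protein-coding genes. The counts join all transcripts of a gene and cannot separate these forms. Exons of 20 tested members overlap a gene on the other strand and those of 3 a gene on the same strand, and since the strand setting of the counting is not given in the sources used here, their counts may hold reads of the neighbour. Reads that align to several places were left out, which lowers the counts of genes with near-identical copies elsewhere, as known for Hnrnpa1 and Srsf3.

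**Figure D1:**
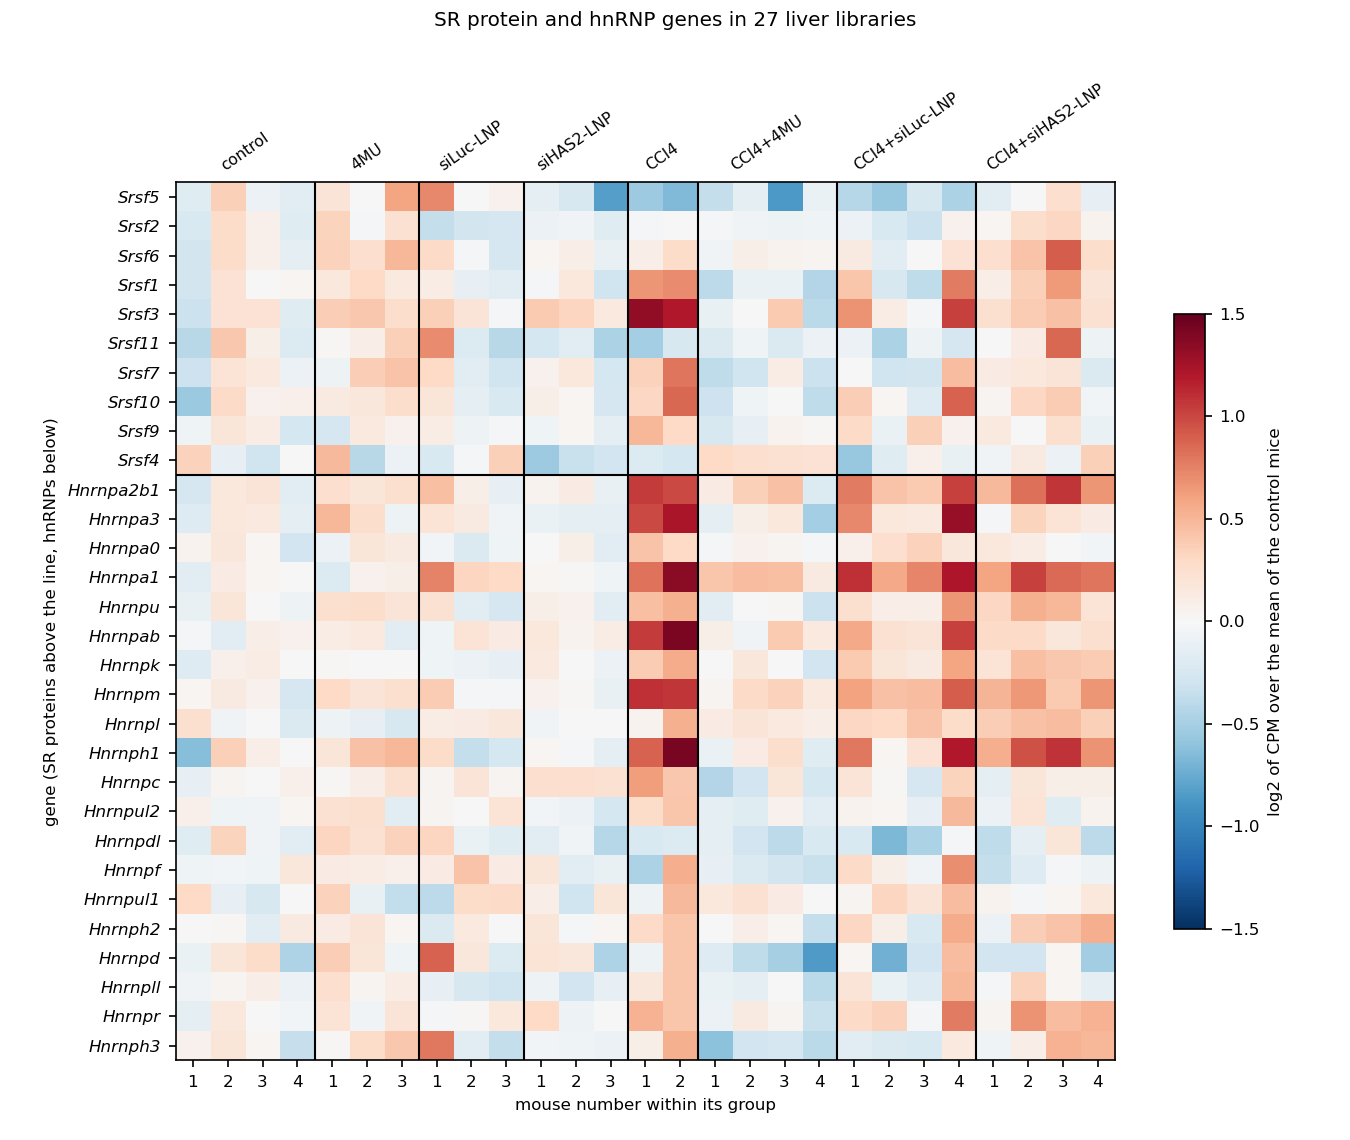
Heat map of the 30 tested genes (rows, SR proteins above the line and hnRNPs below, each by falling level per length) in 27 libraries (columns, by group and mouse number), coloured by the log2 ratio of CPM to the mean of the control mice. The 2 CCl4 mice and CCl4+siLuc-LNP mouse 4 are red for most hnRNPs and for Srsf3, the CCl4+4MU mice are near 0 or blue for most genes, and Srsf5 is blue in most CCl4 libraries.

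CCl4 alone was compared with control to see which splicing factors differ in the injured liver. Of the 30 members, 16 rose and none fell, which is 53.3% called against 34.1% of all 14114 genes, with 18% of all genes called higher and 16.1% lower. The median log2 fold change was 0.38 over the members and -0.02 over all genes tested. The risers were 5 of 10 SR protein genes (Srsf1, Srsf3, Srsf7, Srsf9 and Srsf10) and 11 of 20 hnRNP genes. The 4 largest rises were in Srsf3, Hnrnpab, Hnrnph1 and Hnrnpa1.

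Srsf3, the smallest SR protein, which couples splicing to mRNA export and is needed for hepatocyte maturation, had 50.1, 72.8, 73.2 and 55.2 CPM in the control mice and 158 and 144 CPM in the CCl4 mice. Both CCl4 mice lay above all controls. The change was 1.27 (SE 0.22, adjusted p = 0.000106), a fold of 2.41. Hnrnpab, which binds single-stranded nucleic acids and acts in both transcription and mRNA handling, measured 90.6, 82.1, 98.4 and 95.7 CPM in controls against 189.9 and 244 CPM under CCl4. The groups did not overlap, and the change of 1.24 (SE 0.18, adjusted p = 8.42e-06) was the largest among the hnRNPs. Hnrnph1, which binds runs of guanine, rose by 1.18 (SE 0.26, adjusted p = 0.00133) from 42.2, 84.1, 70.5 and 66.2 CPM to 121 and 176 CPM. Its control mice were spread widely, with mouse 1 the lowest, but none reached either CCl4 mouse.

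Hnrnpa1, the archetypal exon silencer, had 61.8, 75.0, 70.3 and 68.9 CPM in controls and 122 and 177 CPM with CCl4, a change of 1.11 (SE 0.18, adjusted p = 3.68e-05). The 2 CCl4 mice differed from each other more than the 4 controls did, and both were higher than all of them. Hnrnpm, which opposes or promotes exons next to GU-rich elements, had 86.8, 93.6, 88.6 and 71.1 CPM in controls and 182 and 179.5 CPM in CCl4 livers (log2 fold change 1.09, SE 0.15, adjusted p = 4.77e-06). Here the CCl4 mice were nearly equal, and both were above the highest control. Hnrnpa2b1 stood at 308, 409, 419 and 327 CPM in controls and at 757 and 726 CPM with CCl4, and Hnrnpa3 at 174, 222, 220.1 and 181 CPM against 395 and 463 CPM. Neither gene overlapped between the groups, and their changes were 1.02 (SE 0.20, adjusted p = 0.000444) and 1.11 (SE 0.24, adjusted p = 0.000871). Most genes given per mouse were chosen by their adjusted p in these data, so a lack of overlap is no separate support. Srsf1, the founding SR protein and a promoter of exon inclusion, had 61.2, 85.8, 73.4 and 75.4 CPM in controls and 117 and 121 CPM with CCl4 (0.68, SE 0.23, adjusted p = 0.0215).

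Some SR protein genes did not share this direction. Srsf5, first described as an insulin-induced gene of regenerating liver, had 219, 320.3, 235 and 222 CPM in controls and 171 and 158 CPM with CCl4. Both CCl4 mice were below every control, but the change of -0.60 (SE 0.24, adjusted p = 0.0586) did not pass the threshold. Srsf2, the marker protein of nuclear speckles, had 60.6, 86.1, 75.1 and 62.8 CPM in controls and 70.1 and 71.2 CPM with CCl4, within the range of the controls (-0.01, SE 0.14, adjusted p = 0.974).

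These counts rest on the 2 CCl4 mice. Fewer members rose without either of them, with the lone remaining mouse assumed to vary like the other groups. Without CCl4 mouse 2, fewer of all genes were called as well. Hnrnph1 was among those lost without CCl4 mouse 2 (0.90, adjusted p = 0.0667 by edgeR), whereas Srsf3, Hnrnpab, Hnrnpa1, Hnrnpm, Hnrnpa2b1 and Hnrnpa3 passed the threshold whichever mouse was left out.

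The promoter windows of 3 members with large rises and of Srsf5 are shown, so that the letters at their start sites can be compared. Each window runs from 250 bases before to 50 bases after the annotated start (RefSeq, GRCm38.p6, an older build than that of the counts) and is printed on the strand of the gene. Srsf3 lies at chr17:29032410-29032709 (plus strand), Hnrnpab at chr11:51606832-51607131 (minus strand), Hnrnpa1 at chr15:103240147-103240446 (plus strand) and Srsf5 at chr12:80945249-80945548 (plus strand). Capitals mark CCAAT (the NF-Y motif), TATAAA (the TATA box) and CCGGAAG (an ETS motif) on either strand, and GC boxes are not marked.
Srsf3: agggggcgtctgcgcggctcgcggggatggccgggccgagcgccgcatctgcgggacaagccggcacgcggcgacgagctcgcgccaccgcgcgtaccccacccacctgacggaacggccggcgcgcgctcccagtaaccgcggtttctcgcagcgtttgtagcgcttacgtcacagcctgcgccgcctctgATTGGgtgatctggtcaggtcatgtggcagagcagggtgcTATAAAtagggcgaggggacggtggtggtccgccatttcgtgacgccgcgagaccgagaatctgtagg
Hnrnpab: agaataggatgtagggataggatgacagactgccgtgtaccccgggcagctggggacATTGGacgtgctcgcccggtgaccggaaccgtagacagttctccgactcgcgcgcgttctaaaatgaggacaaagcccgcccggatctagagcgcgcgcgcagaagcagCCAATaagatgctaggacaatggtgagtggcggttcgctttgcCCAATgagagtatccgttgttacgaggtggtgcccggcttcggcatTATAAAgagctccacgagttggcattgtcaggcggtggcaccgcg
Hnrnpa1: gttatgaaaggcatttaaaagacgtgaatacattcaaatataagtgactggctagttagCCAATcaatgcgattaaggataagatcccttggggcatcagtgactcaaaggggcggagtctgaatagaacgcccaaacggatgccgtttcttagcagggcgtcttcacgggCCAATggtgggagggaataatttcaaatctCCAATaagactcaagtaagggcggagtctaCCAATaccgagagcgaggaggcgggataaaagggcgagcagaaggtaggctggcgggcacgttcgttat
Srsf5: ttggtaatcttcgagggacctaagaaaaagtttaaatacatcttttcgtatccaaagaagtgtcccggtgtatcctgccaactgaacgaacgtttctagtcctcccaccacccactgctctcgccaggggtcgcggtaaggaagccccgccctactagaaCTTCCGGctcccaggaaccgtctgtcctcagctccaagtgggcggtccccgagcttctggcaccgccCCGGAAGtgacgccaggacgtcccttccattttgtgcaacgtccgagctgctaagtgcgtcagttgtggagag
CCAAT was found 4 times in the Hnrnpa1 window, 3 times in the Hnrnpab window and 1 time in the Srsf3 window. The Srsf5 window held 2 ETS motifs and no CCAAT. These 4 genes do not stand for all members. Hnrnpm, Srsf7 and Srsf9 rose and had no CCAAT in their windows, whereas Srsf2 had CCAAT and was not called.

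Windows were given for 28 of the 30 tested members, 40 windows in all since some genes have several starts. The E2F motif GGCGGGAA, which can overlap a GC box, was present in 22.5% of the member windows, against 2.19% of all 32851 windows and 3.80% of the 13339 windows of tested genes. The GC box GGGCGG was present in 82.5% of member windows, against 35.7% and 59.5%, and CCAAT in 52.5%, against 37.4% of both. For the ETS motif the shares were 25.0%, 8.86% and 16.4%, for the E-box CACGTG 12.5%, 7.15% and 9.61%, and for the TATA box 10%, 13.6% and 7.93%. The CRE TGACGTCA was found in 0 of 40 member windows, against 1.79% and 2.78%. Both strands were searched, and a match describes these letters only.

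Averaged over the 4 arms (no agent, 4MU, siLuc-LNP and siHAS2-LNP), CCl4 livers were compared with livers without CCl4. Of the 30 members, 12 rose and 2 fell, 46.7% called against 51.9% of all genes (26.3% higher and 25.6% lower), so the members were not called more often than genes in general. The median log2 change was 0.16 over the members and -0.02 over all genes. The split by class was 11 higher and 1 lower of 20 hnRNP genes, and 1 higher and 1 lower of 10 SR protein genes.

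Hnrnpa1 had the smallest adjusted p of the members. It ranged from 59.99 to 116 CPM (median 70.4) in the 13 livers without CCl4 and from 75.8 to 177 CPM (median 118) in the 14 livers with it, a change of 0.70 (SE 0.08, adjusted p = 2.16e-07). The upper end of the first range is siLuc-LNP mouse 1, and without CCl4 the other 12 livers lay at or below 86.0 CPM. Hnrnpm ranged from 71.1 to 111 CPM (median 88.6) without and from 87.8 to 182 CPM (median 119) with CCl4 (0.53, SE 0.07, adjusted p = 9.16e-07).

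Hnrnpl, which binds CA repeats, ranged from 68.7 to 95.7 CPM (median 81.0) without and from 84.3 to 118 CPM (median 100.3) with CCl4, and rose by 0.31 (SE 0.06, adjusted p = 0.000159). Its change in CCl4 against control alone was also 0.31 but did not pass the threshold there (adjusted p = 0.0654). Hnrnpa2b1 rose by 0.57 (SE 0.10, adjusted p = 2.74e-05), Hnrnpab by 0.49 (SE 0.08, adjusted p = 3.27e-05) and Hnrnph1 by 0.61 (SE 0.12, adjusted p = 0.000251). In each of these genes the 2 ranges overlapped.

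Srsf3 was the SR protein gene that rose over the 4 arms, by 0.32 (SE 0.10, adjusted p = 0.0132). It ranged from 50.1 to 82.9 CPM without CCl4 and from 47.5 to 158 CPM with it, so that the lowest and the highest liver were both CCl4 livers. Srsf9, which shares targets with Srsf1, lay between 25.2 and 34.4 CPM (median 29.9) without and between 25.5 and 42.5 CPM (median 31.6) with CCl4, and did not pass the threshold (0.16, adjusted p = 0.0613), nor did Srsf1 (0.22, adjusted p = 0.0821).

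Srsf5 and Hnrnpdl fell. Srsf5 ranged from 140.4 to 409 CPM (median 249) in livers without CCl4 and from 137 to 297 CPM (median 202) in those with it, a change of -0.39 (SE 0.11, adjusted p = 0.00421). Hnrnpdl, a relative of the mRNA decay factor Hnrnpd, ranged from 45.2 to 77.1 CPM (median 58.6) and from 38.1 to 68.8 CPM (median 51.9), a change of -0.27 (SE 0.09, adjusted p = 0.0109). Both ranges overlapped widely. The 14 members called here passed the threshold whichever of the 27 mice was left out. When all 14 CCl4 mice were compared with all 13 others as 2 groups, 11 members were called, against 46.5% of all genes, and Srsf3 (0.28, adjusted p = 0.119), Hnrnpu (0.21, adjusted p = 0.0747) and Hnrnpa0 (0.15, adjusted p = 0.0608) were not (edgeR).

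**Figure D2:**
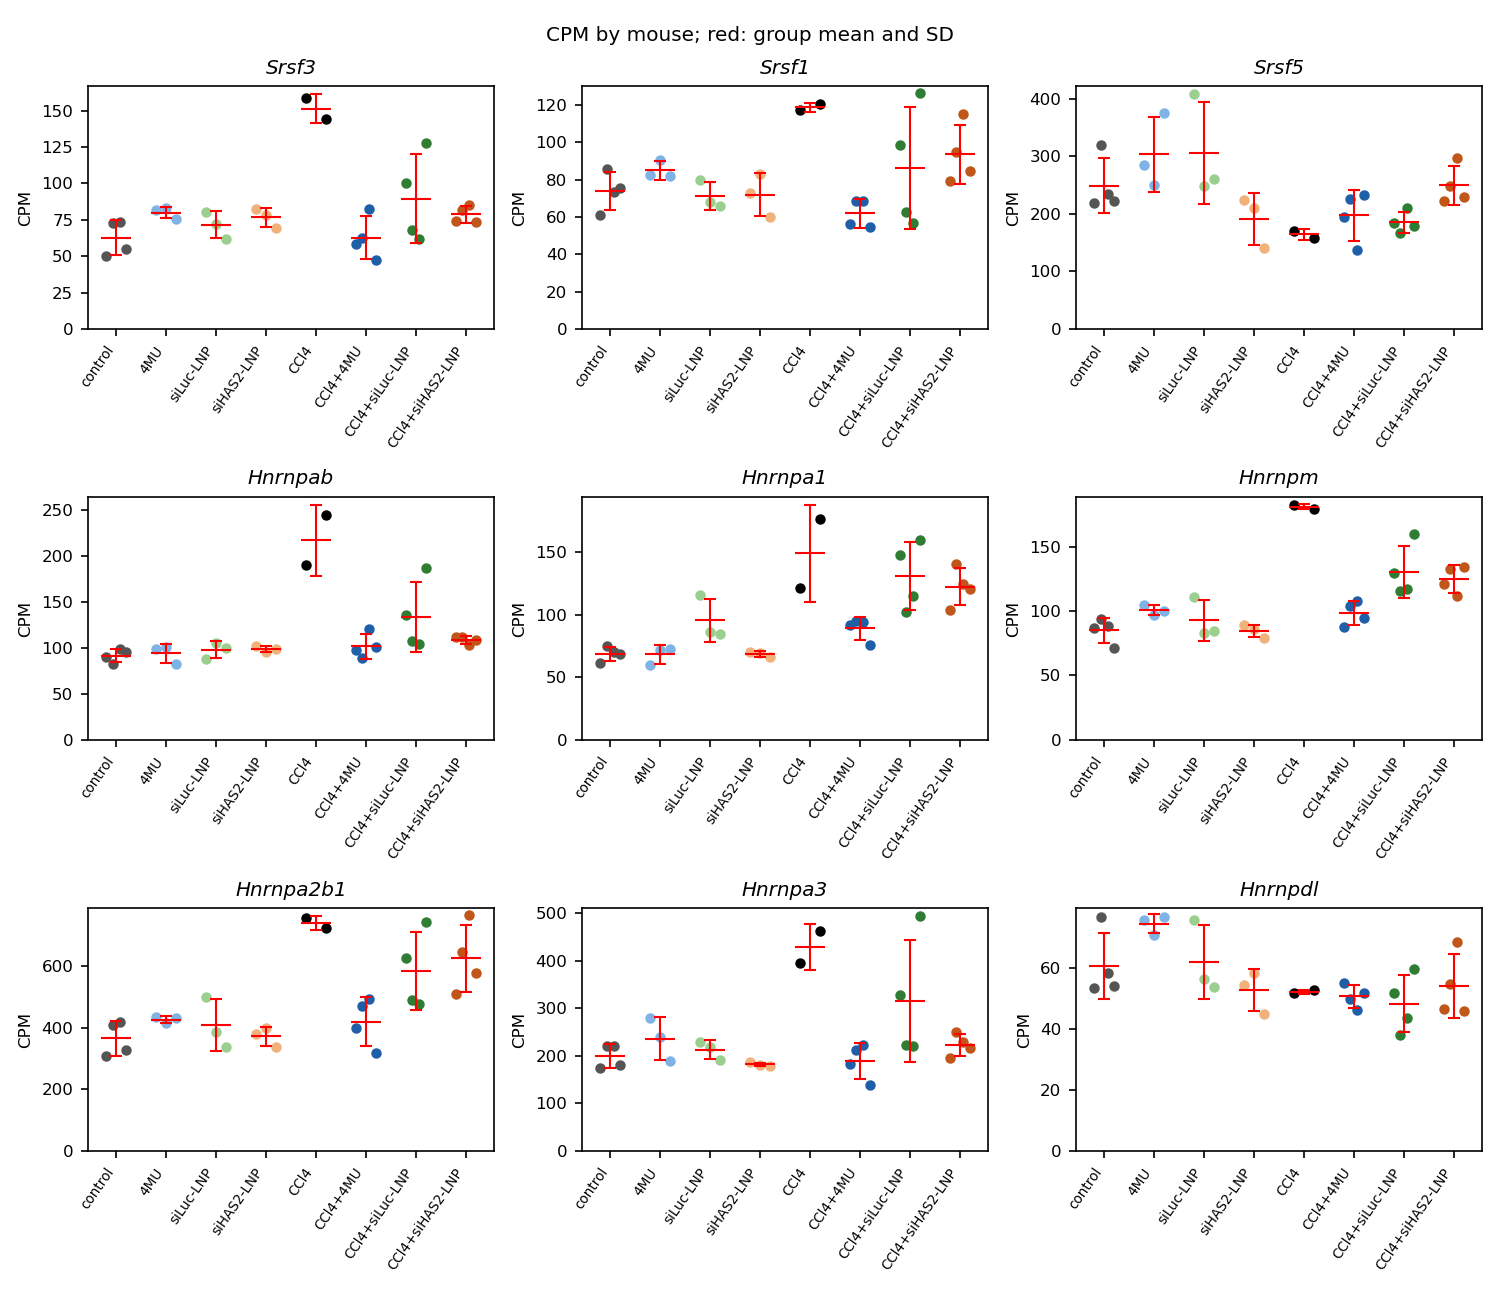
CPM of 9 members (1 panel each, vertical axis from 0) in every mouse of the 8 groups, with the group mean and SD in red. Hnrnpa1, Hnrnpm and Hnrnpa2b1 are above the control mice in most CCl4 livers, Srsf3 and Hnrnpab are highest in the 2 CCl4 mice, and Srsf5 is lower in the CCl4 mice than in the control mice.

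The effect of CCl4 was also taken within each arm. With 4MU in both groups, 3 members fell and 0 rose by edgeR, 10% called against 23.7% of all genes (13.2% higher and 10.5% lower), and the member median was -0.30 against 0.00 for all genes. The 3 were Srsf5 (-0.62, SE 0.21, adjusted p = 0.0316), Hnrnph3, a small relative of Hnrnph1 (-0.62, SE 0.21, adjusted p = 0.0313), and Hnrnpdl (-0.56, SE 0.17, adjusted p = 0.017). Hnrnpdl had 76.0, 71.1 and 77.1 CPM in 4MU mice and 55.1, 49.8, 46.2 and 52.0 CPM in CCl4+4MU mice, which did not overlap. Without 4MU mouse 3, 0 members were called (share of all genes not given).

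With siLuc-LNP in both groups, 6 members rose and 1 fell, 23.3% called against 24.2% of all genes (13% higher and 11.2% lower). Hnrnph1 (0.73), Hnrnpa2b1 (0.52), Hnrnpm (0.49), Hnrnpa1 (0.46), Hnrnpab (0.45) and the poly(C)-binding Hnrnpk (0.43) rose, and Srsf5 fell by 0.72 on the log2 scale (SE 0.21, adjusted p = 0.0128). Srsf5 had 409, 249 and 259.8 CPM in siLuc-LNP mice and 184, 168, 210.3 and 179 CPM in CCl4+siLuc-LNP mice, with no overlap. Without siLuc-LNP mouse 2, or without siLuc-LNP mouse 3, 1 member was called, and it was lower (share of all genes not given).

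With siHAS2-LNP in both groups, 5 members rose and 0 fell, 16.7% called against 12.8% of all genes (7.74% higher and 5.09% lower). These were Hnrnph1 (0.87, adjusted p = 0.0197), Hnrnpa1 (0.83, adjusted p = 0.00132), Hnrnpa2b1 (0.75, adjusted p = 0.00947), Hnrnpm (0.56, adjusted p = 0.00755) and Hnrnpl (0.43, adjusted p = 0.0165). Hnrnpa1 had 70.4, 69.8 and 66.0 CPM in siHAS2-LNP mice and 104, 140.4, 125 and 121 CPM in CCl4+siHAS2-LNP mice, which did not overlap. Srsf5 had 224, 210.3 and 140.4 CPM against 223, 249, 297 and 229 CPM (0.38, SE 0.21, adjusted p = 0.251). The 2 groups overlapped for Srsf5, and without siHAS2-LNP mouse 3, 2 members were called in place of 5 (share of all genes not given).

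**Figure D3:**
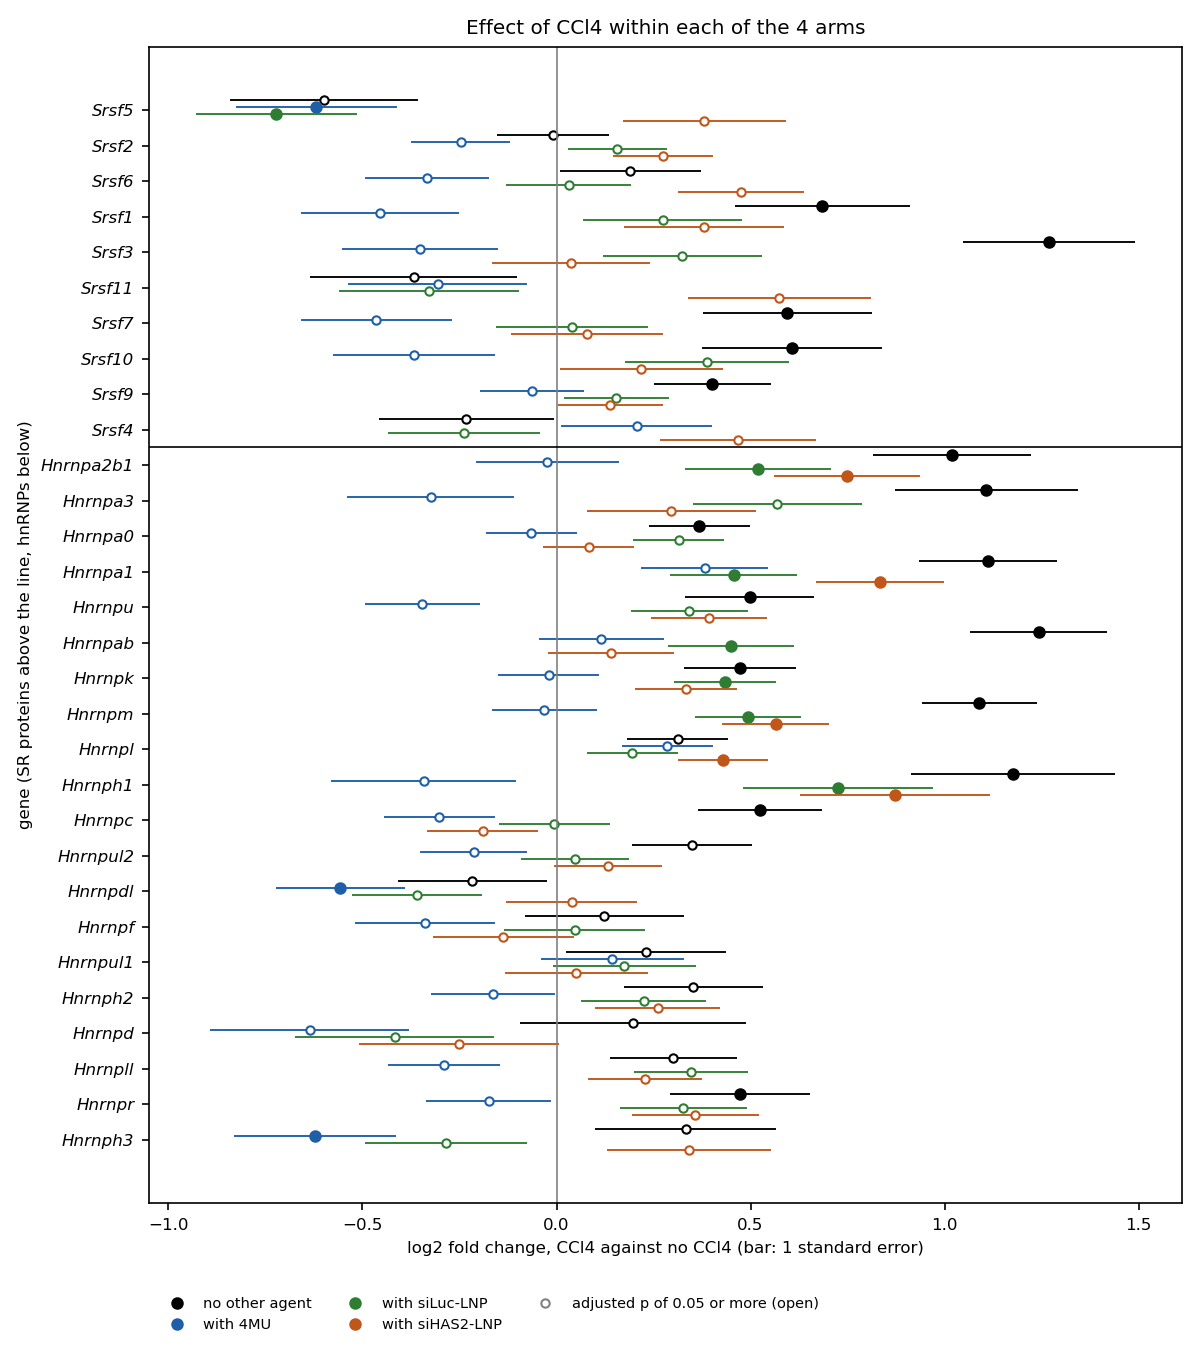
Log2 fold change of CCl4 against no CCl4 for the 30 members in each of the 4 arms, with bars of 1 SE and filled points for an adjusted p under 0.05 (edgeR). Without an agent 16 members are filled on the right, with 4MU 3 are filled on the left, with siLuc-LNP 6 on the right and 1 on the left, and with siHAS2-LNP 5 on the right.

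Livers given CCl4 and 4MU were compared with those given CCl4 alone. Of the 30 members, 17 fell and 0 rose, 56.7% called against 18.3% of all genes (8.28% higher and 10% lower), with a member median of -0.51 against 0.04 for all genes. The 17 were 5 SR protein and 12 hnRNP genes, and 27 of 30 members had a change below 0. The 4 largest falls were in Srsf3, Hnrnpa3, Hnrnph1 and Hnrnpab.

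Srsf3 had 158 and 144 CPM in the CCl4 mice and 58.2, 62.5, 82.4 and 47.5 CPM in the CCl4+4MU mice, a change of -1.27 (SE 0.22, adjusted p = 0.000887). All 4 treated mice lay well below both CCl4 mice, and the controls spanned 50.1 to 73.2 CPM. Hnrnpab had 189.9 and 244 CPM against 97.5, 88.6, 121 and 101 CPM (-1.09, SE 0.18, adjusted p = 0.000706). Hnrnpa3 had 395 and 463 CPM against 182, 212, 223 and 139 CPM (-1.18, SE 0.24, adjusted p = 0.002). Neither of these genes overlapped between the groups, and CCl4+4MU mouse 4 was the lowest for Hnrnpa3.

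Hnrnpm had 182 and 179.5 CPM in the CCl4 mice and 87.8, 104, 108 and 94.5 CPM with 4MU (-0.88, SE 0.15, adjusted p = 0.000783). Hnrnph1 had 121 and 176 CPM against 61.5, 71.3, 79.0 and 58.2 CPM (-1.14, SE 0.26, adjusted p = 0.00526). For both genes the treated mice stood apart from the CCl4 mice. Srsf5 had 171 and 158 CPM against 194, 226, 137 and 233 CPM, which overlapped, and its change of 0.27 (SE 0.24, adjusted p = 0.455) did not pass the threshold.

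These calls depended on the reference. Without CCl4 mouse 2, 4 members fell in place of 17 (13.3% called, against 1.25% of all genes). Srsf3, Hnrnpm, Hnrnpab and Hnrnpc passed whichever mouse was left out. Against the 4 CCl4+siLuc-LNP mice, a reference chosen after the data were seen, 0 members were called by edgeR, against 0.623% of all genes, and 15 had an unadjusted p under 0.05, against 19.1%. The smallest adjusted p was 0.0693, the median change was -0.28, and 25 of 30 members were below 0. Against the mean of both references, 16 members fell, with 18.7% of all genes called and a median of -0.46.

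The interaction of 4MU with CCl4, the difference between the effect of 4MU in CCl4 livers and in healthy livers, was called lower for 10 members and higher for 0, 33.3% against 5.67% of all genes (2.72% higher and 2.95% lower). The member median was -0.62 against 0.05 for all genes. Srsf3 (-1.62, SE 0.30, adjusted p = 0.0115), Hnrnph1 (-1.52, SE 0.36, adjusted p = 0.0233) and Hnrnpa3 (-1.43, SE 0.32, adjusted p = 0.0181) had the largest values. The count fell most without CCl4 mouse 2, where a single CCl4 mouse remains, and far fewer of all genes were called there too. It was 5 without control mouse 1, 4MU mouse 2, 4MU mouse 3, CCl4+4MU mouse 1 or CCl4+4MU mouse 4 (share of all genes not given).

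Livers given CCl4 and siHAS2-LNP were compared with CCl4 alone in the same way. Here 4 members fell and 0 rose, 13.3% called against 14.4% of all genes (7.11% higher and 7.33% lower), with a member median of -0.26 against 0.02. The 4 were Hnrnpab (-0.99, SE 0.18, adjusted p = 0.00138), Srsf3 (-0.94, SE 0.22, adjusted p = 0.00774), Hnrnpa3 (-0.94, SE 0.24, adjusted p = 0.0111) and Hnrnpm (-0.53, SE 0.15, adjusted p = 0.0202). Without CCl4 mouse 2, 0 were called by edgeR, against 0.765% of all genes.

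Hnrnpab had 112, 112, 103 and 108 CPM in CCl4+siHAS2-LNP mice, a narrow range below both CCl4 mice (189.9 and 244 CPM). Srsf3 had 74.1, 81.9, 85.3 and 73.5 CPM, also below both. Hnrnpa1 did not pass, with 104, 140.4, 125 and 121 CPM against 122 and 177 CPM (-0.28, adjusted p = 0.306), and its groups overlapped. Srsf5 had 223, 249, 297 and 229 CPM against 171 and 158 CPM without overlap (0.60, SE 0.24, adjusted p = 0.0956).

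The siLuc-LNP particle was also compared with CCl4 alone, a group whose labels name no injection into the tail vein. By edgeR 0 of 30 members were called, against 0.248% of all genes, and 5 members had an unadjusted p under 0.05, against 14.2% of all genes. DESeq2 called 1 member lower, against 1.96% of all genes in either direction, and limma-voom 1, against 1.24%. Srsf3 had 100.3, 67.8, 61.8 and 128 CPM in CCl4+siLuc-LNP mice, all below both CCl4 mice (-0.76, 95% interval -1.20 to -0.32, adjusted p = 0.116 by edgeR). Hnrnpab had 136, 107, 104.6 and 187 CPM (-0.70, 95% interval -1.05 to -0.35, adjusted p = 0.075 by edgeR), and its 4 mice too were below both CCl4 mice. Both genes were chosen for the smallest adjusted p in this comparison. Their intervals are not adjusted for that choice or for the number of genes. CCl4+siLuc-LNP mouse 4 was the highest of its group for both genes, and without it 6 members were called lower, against 7.52% of all genes in either direction.

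Between siHAS2-LNP and siLuc-LNP in CCl4 livers, the comparison that shares the particle, 0 members were called by edgeR, DESeq2 or limma-voom, against 1.09% of all genes by edgeR, and 6 had an unadjusted p under 0.05, against 16.6%. The change was -0.19 for Srsf3 (95% interval -0.55 to 0.18) and -0.29 for Hnrnpab (95% interval -0.59 to -0.00069, not adjusted for the number of genes). Between 4MU and siHAS2-LNP in CCl4 livers, 0 members were called by edgeR against 1.22% of all genes, and 12 had an unadjusted p under 0.05, against 18.6%. DESeq2 called 5 members lower, against 3.58% of all genes in either direction, and limma-voom 10, against 7.26%. The change of Srsf3 was -0.33 (95% interval -0.70 to 0.04), and 28 of 30 members were below 0.

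**Figure D4:**
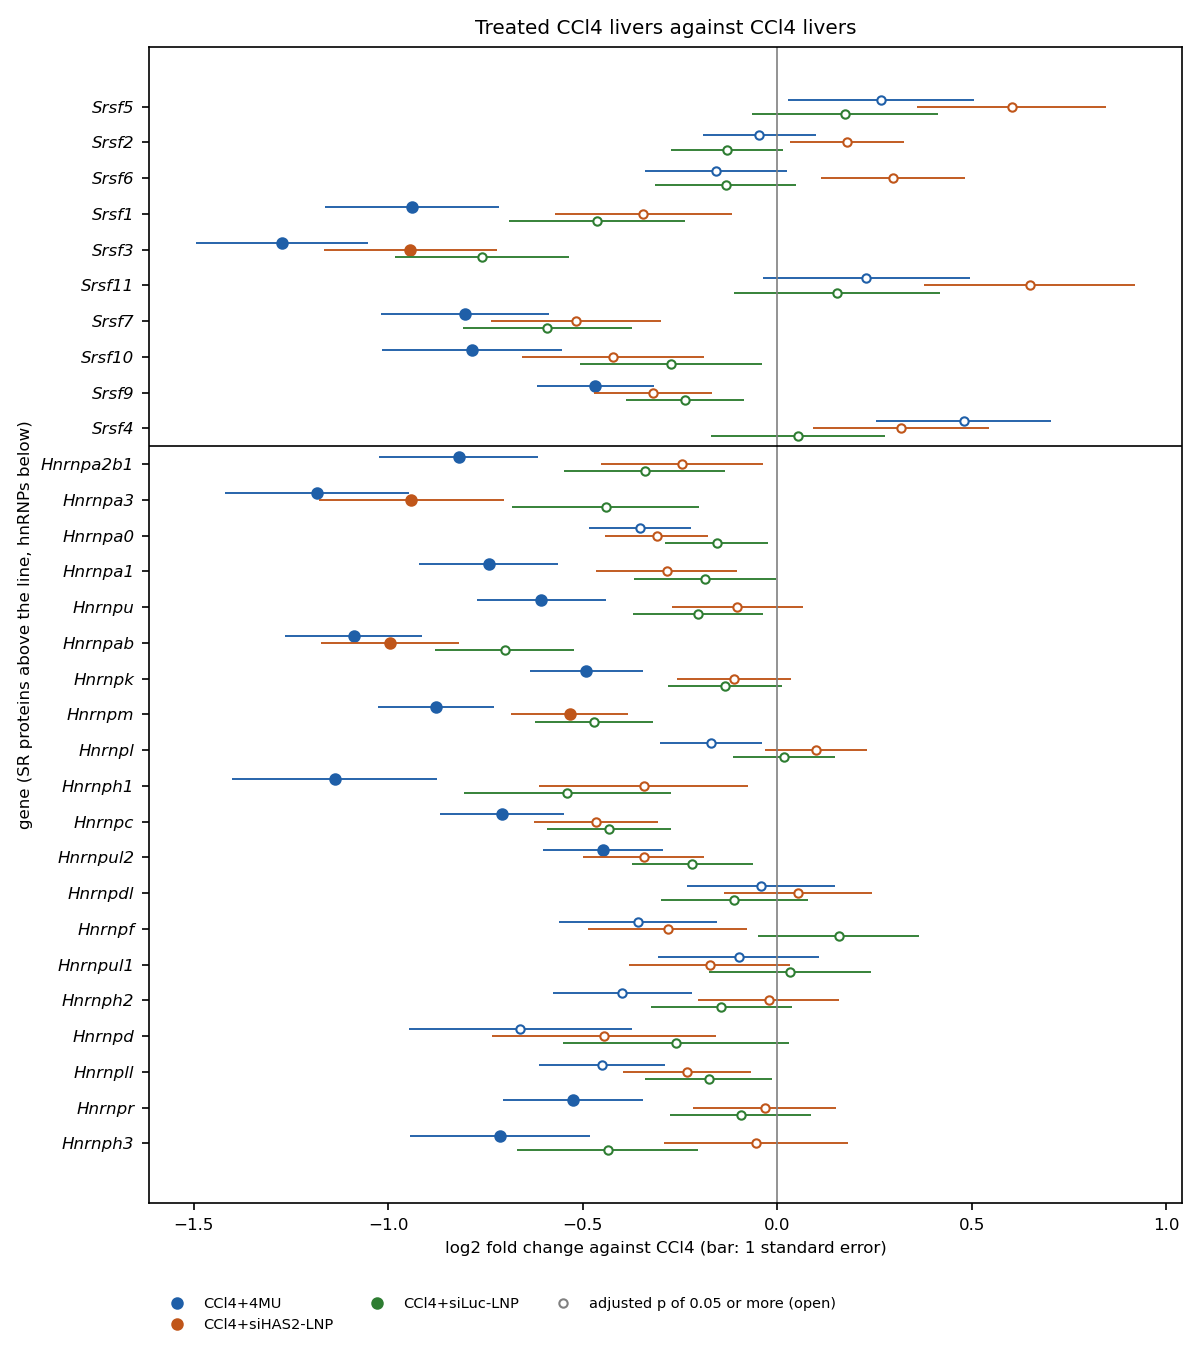
Log2 fold change of CCl4+4MU, CCl4+siHAS2-LNP and CCl4+siLuc-LNP against the same 2 CCl4 mice for the 30 members, with bars of 1 SE and filled points for an adjusted p under 0.05 (edgeR). With 4MU 17 points are filled on the left, with siHAS2-LNP 4, and with siLuc-LNP 0.

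In healthy livers no treatment gave a called member by edgeR, DESeq2 or limma-voom. For 4MU against control, 0 were called against 0.00709% of all genes (1 at an unadjusted p under 0.05, against 6.84%). For siLuc-LNP against control, 0 were called against 0.213% (2 at an unadjusted p under 0.05, against 6.8%), and for siHAS2-LNP against siLuc-LNP, 0 against 0.0425% (3 at an unadjusted p under 0.05, against 8.94%). The interaction of siHAS2 with CCl4 was called for 0 members against 0.0354% (4 at an unadjusted p under 0.05, against 11.4%). Srsf3 had 81.4, 82.9 and 75.5 CPM with 4MU, above its 4 controls (0.35, adjusted p = 0.822 by edgeR).

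The sum of the 20 hnRNP genes was 261 ± 19.4 CPM per kb in control (SD, n = 4). It was 413 and 469.5 CPM per kb in the 2 CCl4 mice, 1.69 times the control mean. In CCl4+4MU livers it was 262, 283, 294 and 233 CPM per kb, within or near the control range of 244 to 283. It was 367, 304, 306 and 457 CPM per kb in CCl4+siLuc-LNP mice and 304, 359, 356 and 325 CPM per kb in CCl4+siHAS2-LNP mice, all above the highest control and, except CCl4+siLuc-LNP mouse 4, below both CCl4 mice. Of the livers without CCl4, siLuc-LNP mouse 1 reached 305.4 CPM per kb, above CCl4+siLuc-LNP mouse 2 (303.5) and CCl4+siHAS2-LNP mouse 1 (304.1), so that CCl4+siLuc-LNP overlapped its own arm without CCl4.

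The sum of the 12 SR protein genes was 122.9 ± 20.7 CPM per kb in control and 130.5 and 135 CPM per kb with CCl4, inside the control range of 104 to 151. Its makeup differed. Srsf5 made up 36.1% ± 2.05 (SD, n = 4) of the SR sum in control and 22.1% ± 1.86 (SD, n = 2) with CCl4, whereas Srsf3 made up 6.24% ± 0.609 and 13.9% ± 1.27, and Srsf1 10.5% ± 0.821 and 15.5% ± 0.094.

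Cell division genes were measured beside these sums. The 14 mitosis and DNA replication genes, which mark dividing cells, summed to 49.9 to 64.8 CPM in control, 654 and 1338 CPM with CCl4, 123 to 394 CPM with CCl4+4MU, 283 to 898 CPM with CCl4+siLuc-LNP and 289 to 354 CPM with CCl4+siHAS2-LNP. In CCl4 against control 14 of 14 rose (median 5.34), and against CCl4 13 fell with 4MU (median -2.12), 10 with siHAS2-LNP (median -1.77) and 0 with siLuc-LNP (median -1.0). The library with the most cell division RNA also had the highest hnRNP sum in 3 of 8 groups, CCl4 (of 2 mice), CCl4+4MU and CCl4+siLuc-LNP, and not in the other 5. With so few mice per group, some such matches arise by chance.

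Markers of liver cell types were measured in the same libraries. Hepatocyte markers fell in 5 of 8 and stellate cell markers rose in 5 of 7 tested genes in CCl4 against control, and their sums ranged from 73089 to 128467 CPM with CCl4 against 166265 to 202915 CPM in control for hepatocytes, and from 519.5 to 803 CPM against 179 to 287 CPM for stellate cells. Cholangiocyte markers rose in 2 of 5 genes (Krt7, 2.70, and Spp1, 2.44), with sums of 240.7 and 297 CPM with CCl4 against 34.4 to 77.0 CPM in control. Macrophage markers rose in 3 of 8 genes (Ccr2, 2.19, Cd68, 2.15, and Lyz2, 1.13), near the 34.1% of all genes called in this comparison. The others were not called, with Adgre1 higher (0.90) and Clec4f (-0.77), Vsig4 (-0.48), Cd5l (-0.40) and Csf1r (-0.37) lower. The macrophage marker sums of 468 and 488 CPM lay within the control range of 369 to 626 CPM. Of 6 endothelial markers 2 rose and 1 fell, of 6 lymphocyte markers 1 fell, and the 3 erythroid markers had a median of -0.49.

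In the comparison of 4MU with CCl4 alone, 4 of 8 hepatocyte markers rose (Cyp2e1, 2.33, Tat, 1.80, Ttr, 0.96, and Alb, 0.82), and their sum was 148597 to 178008 CPM in CCl4+4MU livers. In this comparison 18.3% of all genes were called. A macrophage marker fell (Ccr2, -1.16), and the others were not called. Of those, Lyz2 (1.03), Csf1r (0.73), Vsig4 (0.40), Clec4f (0.15) and Cd5l (0.06) were higher, and Adgre1 (-0.20) and Cd68 (-0.41) lower. The macrophage marker sum was 485 to 723 CPM in CCl4+4MU livers and 468 and 488 CPM in the CCl4 mice. The 7 stellate cell markers had a median of -0.50. With siHAS2-LNP against CCl4 (14.4% of all genes called), 1 hepatocyte marker rose, and 3 stellate cell, 3 macrophage, 2 endothelial and 1 cholangiocyte markers fell. With siLuc-LNP against CCl4, the median was 0.33 for hepatocyte and -0.28 for stellate cell markers. The part of cell makeup and cell division in the changes of the members was not tested.

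**Figure D5:**
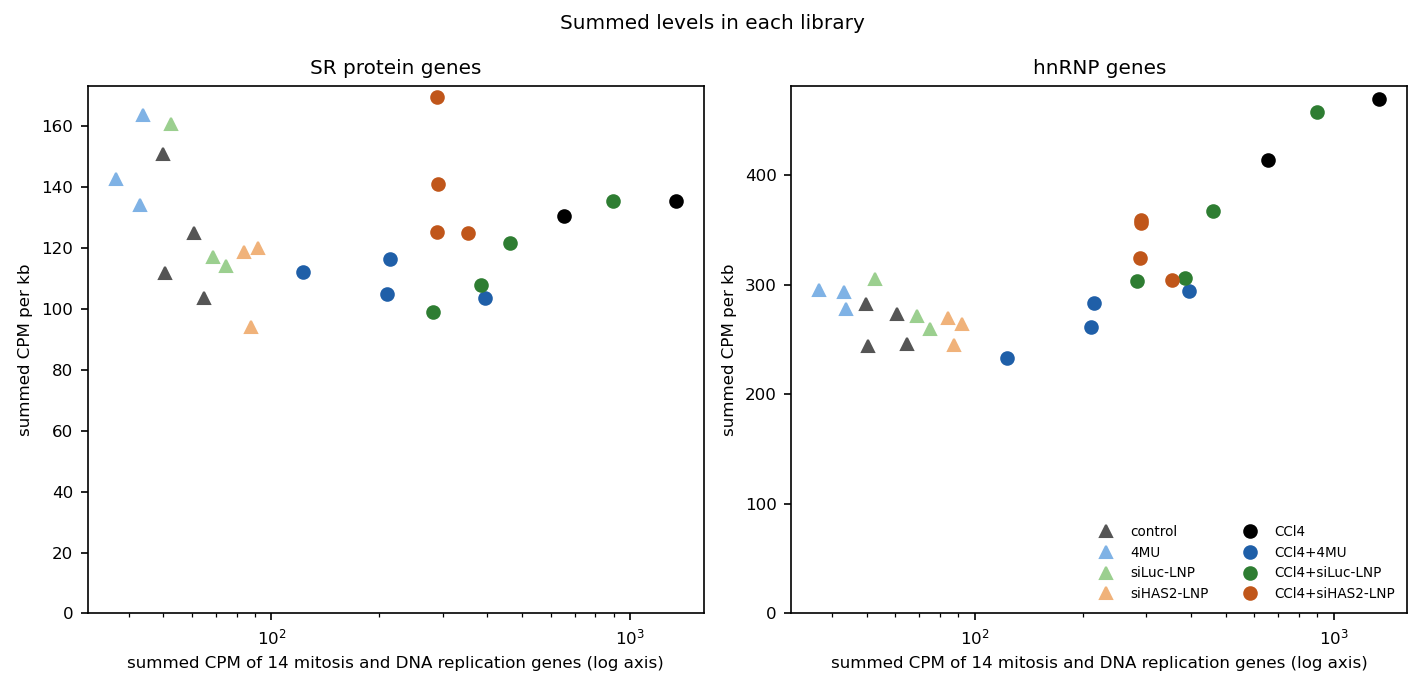
Summed level of the SR protein and of the hnRNP genes (vertical axes, CPM per kb) against the summed CPM of 14 mitosis and DNA replication genes (horizontal log axis) in 27 libraries, coloured by group. Livers without CCl4 lie on the left, and the 2 CCl4 mice and CCl4+siLuc-LNP mouse 4, at the right, have the highest hnRNP sums.

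The nuclear-retained RNAs Malat1 and Neat1 were measured as a sign of how much nuclear RNA a library held. In 5 of 8 groups the library with the highest summed CPM of both also had the highest Srsf5. These were CCl4+siHAS2-LNP mouse 3 (1916 CPM, and 297 CPM of Srsf5), siLuc-LNP mouse 1 (1869 and 409 CPM), control mouse 2 (1168 and 320.3 CPM), 4MU mouse 3 (1111 and 375 CPM) and CCl4 mouse 1 (495 and 171 CPM). With so few mice per group, some such matches arise by chance. The SR sum was also highest in control mouse 2, 4MU mouse 3, siLuc-LNP mouse 1 and CCl4+siHAS2-LNP mouse 3 of their groups. In the CCl4 group it was highest in mouse 2. The hnRNP sum too was highest in control mouse 2 and siLuc-LNP mouse 1. The part of nuclear RNA in the Srsf5 values was not tested.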

How the data were processed

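RNA from 27 mouse livers in 8 groups was sequenced by the authors as poly(A)-selected, paired-end, directional libraries. Per the labels and the study's methods, reads were trimmed (Trimmomatic 0.39), aligned with HISAT2 to GRCm39 and counted per Ensembl gene with featureCounts, without multiply aligned reads. The deposited values are raw counts per gene, 7044386 to 29425937 per library, so that 3 counts, the limit that a count of 0 allows, correspond to 0.102 to 0.426 CPM (counting error only).

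Symbols, coordinates and exon lengths came from GENCODE annotation of GRCm39, which held 54749 of the 55414 genes. The 14114 genes averaging 10 counts or more were fitted in edgeR 4.0.16 (R 4.3.3, TMM, quasi-likelihood test, all 8 groups in 1 fit, Benjamini-Hochberg threshold 0.05). The 95% intervals are normal. Alternatives were DESeq2 1.42.0, limma-voom 3.58.1 with quality weights, DESeq2 size factors, 2 other filters, a replicate block, only the compared groups, a minimum change, leaving out each mouse and other references. The procedure was tested on simulated data. Figures were drawn with matplotlib 3.10.9.

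The members and gene lists were chosen with earlier results of these data known. Values per mouse are given for the 4 SR protein and 6 hnRNP genes with the smallest adjusted p over the 4 arms, the 2 most abundant per class, the 2 with the smallest adjusted p for each treatment against CCl4, and those called in the opposite direction, and other called members may be named (with more than 8, the 4 largest).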

Additional observations from a re-analysis of the deposited data

Results flagged for a closer look

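In 2 of 60 sets of values, each from 1 group of 4 mice, 1 mouse stood apart from the other 3 by Dixon's gap test, where chance gives about 5%. Hnrnpa1 in CCl4+4MU was 75.8 CPM in mouse 4 and 92.1 to 95.0 CPM in the others. Srsf5 in control was 320.3 CPM in mouse 2 and 219 to 235 CPM in the others. Their causes were not tested.

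By the interaction term in edgeR, the effect of 4MU was called different between livers with and without CCl4 for 10 members. This is 33.3% of the members, against 5.67% of all genes. The difference was -1.62 for Srsf3, -1.14 for Srsf1 and -1.06 for Srsf7 on the log2 scale. Among the hnRNPs it was -1.52 for Hnrnph1, -1.43 for Hnrnpa3, -1.13 for Hnrnpab, -1.12 for Hnrnpm, -1.04 for Hnrnpa2b1, -0.84 for Hnrnpu and -0.83 for Hnrnpc. The adjusted p values lay between 0.0115 (Srsf3) and 0.0362 (Srsf7). Srsf3 and Hnrnpm passed the threshold whichever mouse was left out. Each of the others was lost without at least 1 mouse. For some this was CCl4 mouse 2 only, whose absence leaves a single CCl4 mouse.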

How the results depend on the processing

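Counts are of members called, of 30. The share of all genes called can move as well. In siLuc-LNP against CCl4 it went from 0.248% to 7.52% without CCl4+siLuc-LNP mouse 4. That share is not given for each count below, so a changed count is not a result about the members. Of the 76 called changes of single members, 583 repeats under alternatives kept the direction and the threshold, 135 kept the direction but not the threshold, and 0 turned. Of the fits that leave out a mouse, this tally holds only the lowest and the highest per change. DESeq2, its size factors and 1 of the 2 other filters each kept all 76. The tally is therefore no measure of how many calls hold whichever mouse is left out. With DESeq2, siLuc-LNP against CCl4 gave 1 and 4MU against siHAS2-LNP gave 5. With limma-voom these gave 1 and 10, and the CCl4 effect gave 10 with 4MU (3 higher, 7 lower) and 13 with siHAS2-LNP. Without a low-count filter, CCl4 against control gave 10, the CCl4 effect 2 with siLuc-LNP and 3 with siHAS2-LNP, siLuc-LNP against CCl4 1, 4MU against siHAS2-LNP 2 and the siHAS2 interaction 1. When the fit held the compared groups alone, the CCl4 effect gave 5 with 4MU and 0 with siLuc-LNP, and 4MU against siHAS2-LNP gave 1. A minimum change of 0.5 left 4 over the 4 arms and 3 with siLuc-LNP. Against CCl4+siLuc-LNP, 4MU gave 0. The summed SR level of CCl4 over control was 1.08, and 1.13 without division by length. The causes were not tested. A fit of only the compared groups was not possible for the 4 arms, which use all groups.

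Leaving out each mouse in turn, CCl4 against control gave 7 to 16, the 4 arms 14 to 17, the CCl4 effect 0 to 4 with 4MU, 1 to 10 with siLuc-LNP and 2 to 6 with siHAS2-LNP, 4MU in CCl4 livers 4 to 18, siHAS2-LNP against CCl4 0 to 5, siLuc-LNP against CCl4 0 to 6, 4MU against siHAS2-LNP 0 to 4 and the 4MU interaction 2 to 12. With siLuc-LNP, the 1 call left without siLuc-LNP mouse 2 or 3 was lower, while most calls were higher. The highest counts over the 4 arms (17) and with siLuc-LNP (10) came without CCl4+siLuc-LNP mouse 3. That library differed most in its counts from the others of its group and had the lowest TMM factor of the 27 (0.816). The summed SR ratio ranged from 1.03 to 1.17.

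Replicate numbers did not pair the mice: over 83 pairs of same-numbered libraries the median correlation of their deviations was -0.0165 (-0.312 to 0.269), and 0 of 21 group pairs had every correlation over 0.1. With the replicate number as a block, CCl4 against control gave 10 and the CCl4 effect with siLuc-LNP 4, and no other count moved by over 1.5 times.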

Other observations

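Other parts of the splicing machinery were measured from lists of known function, chosen with earlier results known, in the CCl4 effect over the 4 arms (edgeR, 51.9% of all genes called). In the U1 and U2 particles, which recognise the splice sites, 6 of 18 genes rose and 2 fell, with Sf3b3 at 0.62 (SE 0.08) and the polypyrimidine tract receptor U2af2 at 0.34 (SE 0.07). Of the tri-snRNP and Prp19 complex genes, 3 of 18 rose and 2 fell, with the GTPase Eftud2 at 0.68 (SE 0.07) and Prpf31 at 0.48 (SE 0.07). In the Sm core 1 of 7 rose (Snrpb, 0.26). Of the hnRNPs with other gene names, 4 of 11 rose and 1 fell, with Rbmx at 0.62 and Ptbp1, the polypyrimidine tract-binding splicing repressor, at 0.72.

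Among other splicing regulators 5 of 18 tested genes rose and 2 fell, with Mbnl3 at 1.54 (SE 0.29) and Ptbp1, which is in both lists. Of the SR-related proteins and coactivators 4 of 18 rose and 2 fell, with Thrap3 at 0.36 and Rsrc1 at -0.39. Of the import, export and methylation genes 1 of 6 rose (Tnpo2, 0.31) and 1 fell (the mRNA export receptor Nxf1, -0.28). By edgeR 0 of 9 tested kinases and phosphatases of SR proteins were called over the 4 arms, and against CCl4 alone 2 rose and 1 fell with 4MU (18.3% of all genes called), 3 rose with siHAS2-LNP (14.4%) and 0 were called with siLuc-LNP (0.248%). In the same 3 comparisons, the tri-snRNP and Prp19 list had 7 lower and 1 higher with 4MU, 4 lower with siHAS2-LNP and 0 called with siLuc-LNP.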
